A study of Arabidopsis thaliana with 6 samples.

Results

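Integuments are the maternal coats of the ovule, and 10 transcription factor genes that control their growth and polarity were measured among the 33977 genes of the deposited count table. They were taken by name from the developmental genetics of Arabidopsis thaliana and not from measured values: INO, ANT, BEL1, SUP, ATS (also KAN4), KAN1, KAN2, PHB, PHV and REV. The RNA came from ovules with a mature embryo sac, dissected at flower stages 13 and 14 when plants were 6 weeks old. Wild type plants were compared with plants labelled PRP8Aa prp8bb, which carry T-DNA insertions in PRP8A and PRP8B, the pair of genes for a protein at the core of the spliceosome. As written, the label means heterozygous for the prp8a insertion and homozygous for the prp8b insertion. The ovules of the second genotype were a mix of PRP8A;prp8b and prp8a;prp8b, and the labels give no separate counts of the 2 kinds. Integuments are tissue of the mother plant, so the mix describes embryo sacs and not integuments. Each group had 3 libraries, and the labels name no treatment. In bulk RNA, fewer cells of a type and less RNA per cell cannot be told apart.

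Gene counts per library ranged from 8497702 to 12644525. PRP8A had 1131 to 1200 CPM (counts scaled by library size) in wild type and 871 to 956 in the libraries labelled PRP8Aa prp8bb. The 9 of 25 exon bins of PRP8B nearest its 3′ end, a boundary placed after the values were seen, held 27.8% to 37.8% of its bin counts in the wild type libraries. The values were 32.0%, 6.71% and 18.1% in replicates 1, 2 and 3 of the other group, so by this share the first went against its label. By level it lay with its group. PRP8B as a whole had 34.9 to 38.4 CPM in wild type. In replicates 1, 2 and 3 of the other group it had 41.4, 42.8 and 43.8 CPM. The lowest PRP8A level of all libraries, 871 CPM, was that of replicate 1 labelled PRP8Aa prp8bb. Because of the 3′ share, the libraries of this group are named here by their label, as the libraries labelled mutant. Wild type replicate 1 had 77.6% even gene counts, against 47.7% to 48.6% elsewhere, so that its fragments may have been counted 2 times. It also had the fewest exon bin counts (7361474, against 18706217 to 23086207). In genes of a single exon bin, its bin counts were 0.516 times its gene counts, against 1.01 to 1.03 times elsewhere. If its fragments were counted 2 times, it was shallower than its gene counts state. The mitochondrial share of counts was 14.5% in mutant replicate 2 and 2.43% to 6.53% in every other library.

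In the ovule, BEL1 and ANT act early in forming integuments, and INO drives growth of the outer one on the side that faces the base of the carpel. SUP holds that growth back on the opposite side. The KANADI proteins, of which ATS acts in the inner integument, specify abaxial (outer) faces, while the class III homeodomain-leucine zipper (HD-ZIP III) proteins PHB, PHV and REV specify adaxial (inner) faces. Messenger RNAs of the HD-ZIP III genes are cut under the guidance of the microRNAs miR165 and miR166.

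The site that these microRNAs recognise is assembled by splicing, and is shown because it links the microRNA to the intron and exon measurements given further on. The 9 microRNA loci of the RefSeq annotation (TAIR10.1) encode 2 mature sequences with 1 seed, given here with the seed (bases 2 to 8) in capitals.
miR165: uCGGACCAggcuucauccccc
miR166: uCGGACCAggcuucauucccc
In each HD-ZIP III gene the best match fell across an exon junction, with 11 bases in the upstream exon (lower case) and 10 in the downstream exon (capitals). The genomic span includes the intron between them.
PHB (chr2:14642530-14642666, minus strand, exons 4 and 5): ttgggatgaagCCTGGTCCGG
PHV (chr1:10799330-10799445, minus strand, exons 4 and 5): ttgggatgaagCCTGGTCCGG
REV (chr5:24398787-24398898, plus strand, exons 4 and 5): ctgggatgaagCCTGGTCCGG
PHB and PHV share the site and REV differs from them at its first base. Counted from 1 at the 5′ end of the site, the PHB and PHV sites differ from the full complement of miR166 by G1T, G2T, A5G and A21G, and the REV site by G1C, G2T, A5G and A21G. The sequence comes from the RefSeq genome, in which all 10 genes have the start and end that the count table gives.

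Per kilobase of exon, REV was the most abundant of the 10 in wild type ovules (46.2 ± 1.52 CPM per kilobase, SD, n = 3), and KAN2 the least (2.34 ± 0.438), a span of 19.7-fold. ANT (34.9 ± 2.76), PHB (31.3 ± 2.36) and PHV (30.3 ± 2.54) followed REV, and the library ranges of ANT and PHB and of PHB and PHV overlapped. INO stood next at 22.4 ± 0.854 CPM per kilobase, below PHV and above BEL1 (10.6 ± 0.717) with no overlap. ATS (7.16 ± 0.333) and SUP (6.15 ± 1.38) overlapped, and KAN1 (3.22 ± 0.201) lay above KAN2. Among all genes tested, these levels ran from the 14.8th percentile for KAN2 to the 90.1st for REV. In the libraries labelled mutant the order was the same except that SUP (7.05 ± 0.858) stood above ATS (6.35 ± 0.482), whose ranges overlapped, and those of KAN1 and KAN2 also overlapped. ANT and PHB no longer overlapped there, at 43.6 ± 2.92 and 34.3 ± 2.85 CPM per kilobase.

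**Figure D1:**
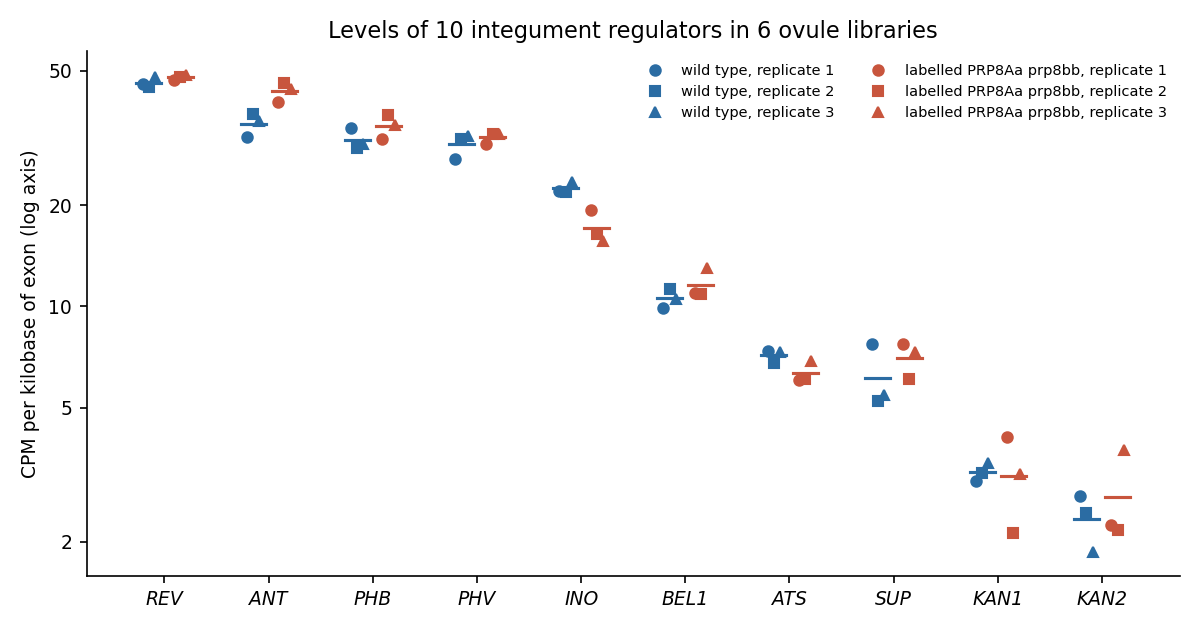
Level of each gene in every library, as CPM per kilobase of exon on a log axis, with horizontal lines at the group means (n = 3). Wild type INO lies at 21.9 to 23.4 and the libraries labelled mutant at 15.7 to 19.3, whereas for REV the groups overlap.

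All 10 genes passed the filter on low counts, and none passed the test between groups (edgeR quasi-likelihood test, Benjamini-Hochberg adjusted p under 0.05 over 19297 genes). Over all genes, 5.85% passed, 3.05% higher and 2.79% lower in the libraries labelled mutant. At an unadjusted p under 0.05 there were 2 of the 10, INO and ANT, against 19% of all genes tested. The same 2 had library ranges that did not overlap between groups, which 25.4% of all genes tested also had. The median log2 fold change was 0.10 over the 10 genes and -0.0076 over all genes tested. The DESeq2 Wald test and limma-voom also called 0 of the 10, and the authors' deposited table of 1543 genes holds none of them.

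INO (AT1G23420, TAIR10 chromosome 1, 8317297 to 8319491, plus strand) encodes a YABBY transcription factor without which the outer integument does not form. In wild type it measured 26.6, 26.4 and 28.3 CPM over replicates 1, 2 and 3. In the libraries labelled mutant it measured 23.4, 19.8 and 18.96 CPM. Every library labelled mutant was below every wild type library, and its replicate 1, the library whose PRP8B share resembled wild type, was the nearest to them. This was not particular to INO. On the first principal component over all genes tested, that library scored 26.6, against 50.4 and 38.05 for replicates 2 and 3. Wild type libraries scored -40.5 to -37.3. The log2 fold change of INO was -0.39 (SE 0.12, 95% interval -0.66 to -0.12, edgeR adjusted p = 0.107). It was -0.49 without mutant replicate 1 (edgeR adjusted p = 0.0597), the lowest adjusted p over 13 alternatives, of which the highest was 0.365.

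ANT (AT4G37750, chromosome 4, 17739514 to 17742407, plus strand) encodes an AP2-type factor that sustains cell division in growing organs and the start of integuments. Over wild type replicates it measured 68.7, 80.4 and 76.4 CPM, and over the libraries labelled mutant 87.1, 99.4 and 95.1 CPM. All of the latter lay above the wild type range, again with replicate 1 nearest to it, as on the first principal component over all genes tested. The log2 fold change was 0.32 (SE 0.10, 95% interval 0.09 to 0.54, edgeR adjusted p = 0.110).

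Since INO was lower and ANT higher in the libraries labelled mutant, without either passing the threshold, their levels were set against each other within each library, a ratio chosen after the values were seen and given without a test. Per kilobase, ANT stood at 1.45, 1.71 and 1.51 times INO in wild type and at 2.09, 2.82 and 2.82 times INO in the other group. Because it combines 2 genes already seen to be apart in opposite directions, the ratio could not overlap between groups.

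**Figure D2:**
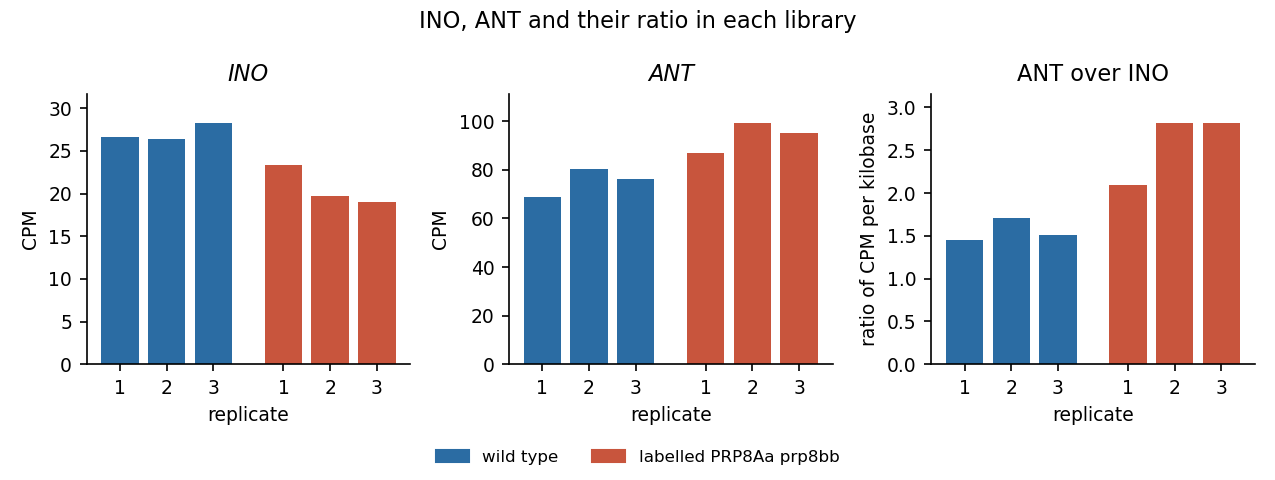
CPM of INO and of ANT, and the ratio of their CPM per kilobase, in each library, with 1 bar per library and axes from 0. The ratio is 1.45 to 1.71 in wild type and 2.09 to 2.82 in the libraries labelled mutant.

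Among the genes tested whose pattern over the 6 libraries lay closest to that of INO were ABCG25, an ATP-binding cassette transporter gene (Euclidean distance 0.0642 on centred log2 CPM with 0.5 CPM added), and NPSN12, a SNARE protein gene (0.0810). Their log2 fold changes were -0.39 and -0.37, and neither passed (edgeR adjusted p = 0.0761 and 0.148).

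BEL1 (AT5G41410, chromosome 5, 16579936 to 16584077, plus strand), a homeodomain factor gene required for integument identity, had 25.9 to 29.7 CPM in wild type and 28.6 to 34.1 in the libraries labelled mutant. The groups overlapped, and the log2 fold change was 0.13 (95% interval -0.13 to 0.40). SUP (AT3G23130, chromosome 3, 8242256 to 8243372, plus strand), a zinc finger gene, had 8.65, 5.85 and 6.11 CPM in wild type and 8.62, 6.79 and 8.20 in the other group. Wild type replicate 1 was the highest of all, and the log2 fold change of 0.22 had an interval from -0.25 to 0.68. Without wild type replicate 1 it was 0.40 (edgeR adjusted p = 0.286).

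None of the 3 KANADI genes passed, and in each the groups overlapped. ATS (AT5G42630, chromosome 5, 17073673 to 17075904, minus strand), which keeps the inner and outer integuments separate, had 12.04, 11.07 and 11.99 CPM in wild type, against 9.91, 9.93 and 11.3 in the libraries labelled mutant, a log2 fold change of -0.17 (95% interval -0.49 to 0.15). KAN1 (AT5G16560, chromosome 5, 5406863 to 5411766, minus strand) had 7.24, 7.64 and 8.20 CPM in wild type, and its libraries labelled mutant scattered over 9.76, 5.07 and 7.58. KAN2 (AT1G32240, chromosome 1, 11625616 to 11630745, minus strand) had 7.01, 6.24 and 4.80 against 5.75, 5.58 and 9.61 CPM. For KAN1 and KAN2, which act together in growth of the outer integument, the log2 fold changes were -0.03 and 0.22, with 95% intervals from -0.56 to 0.49 and from -0.36 to 0.80. These intervals allow changes larger than that measured for INO.

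None of the 3 HD-ZIP III genes passed either. REV (AT5G60690, chromosome 5, 24396981 to 24402195, plus strand) had 162.5, 159.0 and 169.6 CPM in wild type, against 166.1, 170.2 and 172.8 in the other group. PHB (AT2G34710, chromosome 2, 14639323 to 14644355, minus strand) had 92.7 to 107 CPM against 98.6 to 116, and PHV (AT1G30490, chromosome 1, 10796124 to 10801093, minus strand) had 84.4 to 98.7 against 93.6 to 100.2. Their log2 fold changes were 0.05, 0.13 and 0.07, with 95% intervals from -0.14 to 0.25, from -0.10 to 0.36 and from -0.15 to 0.29. These intervals leave room for changes of the size measured for ANT only in PHB. Without wild type replicate 1 the log2 fold change was 0.0015 for PHV and 0.20 for PHB.

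Shares were also taken within each family. In the summed level per kilobase of the 5 HD-ZIP III genes, REV took 34.1 ± 0.433% in wild type and 34.0 ± 0.647% in the libraries labelled mutant (SD, n = 3). PHB took 23.1 ± 1.79% and 24.3 ± 1.43%, PHV 22.4 ± 1.82% and 22.5 ± 0.206%, CNA 12.8 ± 0.598% and 12.3 ± 1.24%, and ATHB8 7.60 ± 0.528% and 6.89 ± 0.634%. PHV stood above PHB in wild type replicates 2 and 3, and PHB above PHV in wild type replicate 1 and all 3 libraries labelled mutant. CNA and ATHB8 are the family members that are not among the 10 genes. Among the 4 KANADI genes ATS held 45.6% to 50.9% in wild type and 40.8% to 44.8% in the other group. It was the only one of these 9 family shares whose ranges did not overlap. Of all genes tested, 25.4% had levels whose ranges did not overlap. Shares within a family sum to a fixed total and are not independent, and no test was made of them. KAN1 held 18.8% to 23.8% against 15.6% to 28.1%, KAN2 13.0% to 16.9% against 15.4% to 22.1%, and KAN3 12.3% to 18.6% against 14.9% to 23.5%. The adaxial family exceeded the abaxial one by 9.01 ± 0.621-fold in wild type and 9.47 ± 0.981-fold in the libraries labelled mutant (n = 3 each), on summed CPM per kilobase.

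**Figure D3:**
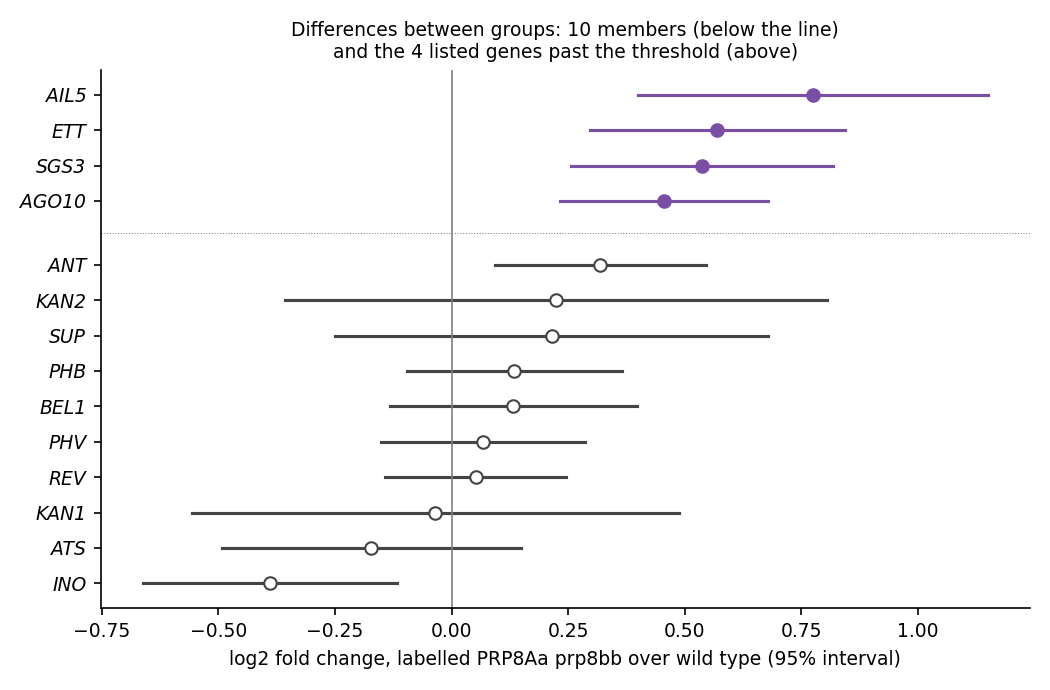
Log2 fold change of the libraries labelled mutant over wild type with its 95% interval, for the 10 genes (open points) and, above the dotted line, for the 4 listed partner genes that passed the threshold (filled points). Only the intervals of INO and ANT among the 10 leave out 0.

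Other genes of integument growth and polarity, from a list of 59, were read from the same fit. Of these, 44 passed the count filter, 4 rose in the libraries labelled mutant and 0 fell, where 3.05% and 2.79% of all genes did. An unadjusted p under 0.05 was found for 14 of the 44, against 19% of all genes tested. ETT, an auxin response factor that works with KANADI proteins in abaxial fate, rose from a mean of 40.5 ± 3.84 CPM to 60.3 ± 7.51 (SD, n = 3), a log2 fold change of 0.57 (SE 0.12, edgeR adjusted p = 0.0236). SGS3, which helps make the small interfering RNAs that target ETT, rose from 56.9 ± 3.34 to 82.6 ± 13.7 CPM (0.54, adjusted p = 0.0352). AGO10, an ARGONAUTE that binds miR165 and miR166 and keeps them from their targets, rose from 144 ± 14.1 to 197 ± 2.86 CPM (0.46, adjusted p = 0.0260). AIL5, a relative of ANT, rose from 8.48 ± 1.71 to 14.6 ± 0.0281 CPM (0.77, adjusted p = 0.0243). In all 4 every library labelled mutant was above every wild type library, which adds no support, since a test on these same libraries picked them. Ranges did not overlap in 15 of the 44 listed genes tested and in 25.4% of all genes tested. No gene of the list was called without wild type replicate 3 or without mutant replicate 3, and 1, AGO10, without mutant replicate 2. Over all alternatives the highest adjusted p was 0.107 for ETT, 0.172 for SGS3, 0.130 for AGO10 and 0.133 for AIL5. AGO10 and SGS3 were also not called without wild type replicate 2, and AIL5 not without mutant replicate 1. With replicate number added to the fit as a block, AGO10 and SGS3 were again not called (edgeR adjusted p = 0.0508 and 0.0505).

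Partners of the same modules did not pass. These were chosen after their values were seen. DCL1, which makes microRNAs, and AGO1, which carries them, had log2 fold changes of 0.06 and -0.06. ARF4, the auxin response factor paired with ETT, stood at 0.17. LUG, a corepressor that works with YABBY proteins, stood at 0.33 (edgeR adjusted p = 0.106). The YABBY genes FIL and YAB3 stood at 0.50 (adjusted p = 0.155) and 0.59 (0.0685), AIL6 at 0.32, and ARGOS, which promotes organ growth through ANT, at -1.97 (0.0591) with 4.67, 1.404 and 4.57 CPM in wild type and 1.29, 0.507 and 0.794 in the other group. The authors' deposited table holds ARGOS (log2 fold change -2.004, adjusted p = 0.0116) and ARF2, a repressor of integument cell division (0.30, adjusted p = 0.0437), together with the 4 genes above. Among the alternatives, the DESeq2 Wald test also called ARGOS (DESeq2 adjusted p = 0.0117) and ARF2 (0.0473). ARGOS was also called lower with no filter, with the replicate block and without wild type replicate 2. Of the little zipper genes, whose proteins bind HD-ZIP III proteins, ZPR3 stood at -0.83 (edgeR adjusted p = 0.171). The 9 miR165 and miR166 loci held 14 counts in all 6 libraries together, with 7 of them at 0 throughout, so no difference was detectable at this depth.

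Exons were then compared, since PRP8 acts in splicing. Over 99 exon bins of the 10 genes, 91 in 9 genes were tested for a change in share within the gene (SUP has a single bin), and 0 were called, with 0 at an unadjusted p under 0.05 (edgeR diffSpliceDGE). In all genes, 2 of 116071 bins (0.00172%) were called and 1.59% had an unadjusted p under 0.05. That share is below the 0.05 that p-values give without any difference, so the test was conservative here. The 0 calls therefore do not show that usage was unchanged. By gene (Simes), 1 of 14868 (0.00673%) was called, and it was not among the 10. The median absolute difference in log2 usage was 0.122 over these bins and 0.127 over all bins tested. The bin of smallest p was the last of PHV, whose share was 5.72 ± 0.712% in wild type and 4.31 ± 0.987% in the libraries labelled mutant (SD, n = 3; log2 usage difference -0.40, edgeR unadjusted p = 0.0588). In the other 8 genes tested, the bin of smallest p differed by -0.68 (KAN2), 0.45 (KAN1), -0.37 (ANT), 0.35 (PHB), 0.35 (REV), 0.32 (ATS), 0.25 (BEL1) and -0.24 (INO) in log2 usage.

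**Figure D4:**
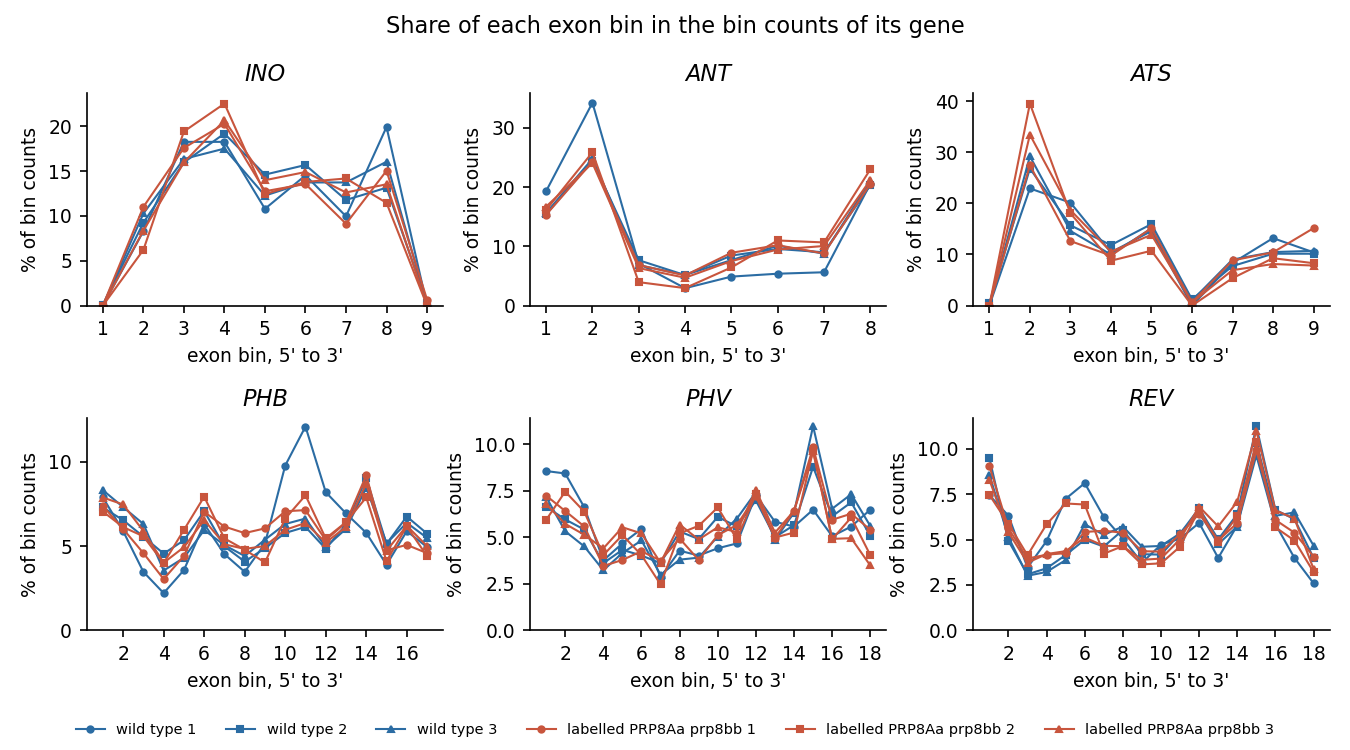
Share of the bin counts of 6 genes that fell in each exon bin, from 5′ to 3′, with 1 line per library. Most profiles lie on each other, but wild type replicate 1, which has the fewest bin counts, stands apart in several bins. Among them are bin 2 of ANT, at 34.2% against 24.1% to 25.9% in the other 5 libraries, and bin 11 of PHB, at 12.1% against 6.14% to 8.02%.

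ANT holds the shortest internal exon of the 10 genes, 9 bases long (exon 4, chr4:17741106-17741114, plus strand), and it is shown because its bin covers a whole exon that splicing can include or skip. The exon is in capitals with 20 bases of each neighbouring intron.
ANT exon 4: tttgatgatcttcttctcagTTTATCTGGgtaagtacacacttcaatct
Its bin held 2.93%, 5.14% and 5.17% of all ANT bin counts over wild type replicates 1, 2 and 3. For the libraries labelled mutant the shares were 5.09%, 2.95% and 4.70%. The lowest values were in a library of each group, and the log2 usage difference was -0.20 (edgeR unadjusted p = 0.452).

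At the microRNA site of PHB, PHV and REV, the shares of the exons on either side of the junction differed between groups by less than the larger SD. In CNA, which is not among the 10, the downstream exon held 3.14% to 4.40% in wild type and 4.82% to 5.73% in the libraries labelled mutant, ranges that did not overlap. This share was picked after the values were seen, and no test of it is given. The other exon shares at these sites in the HD-ZIP III genes overlapped. Its lowest value, in wild type replicate 1, rested on 16 counts. Of all genes tested, 25.4% had levels whose ranges did not overlap. The upstream exon of PHB held 3.44 ± 1.18% of bin counts over wild type libraries and 3.68 ± 0.552% in the libraries labelled mutant, and the downstream exon 4.41 ± 0.890% and 5.10 ± 0.789% (SD, n = 3). In PHV the upstream exon held 3.53 ± 0.273% and 3.97 ± 0.476%, and in REV 3.85 ± 0.930% and 4.74 ± 0.956%. The upstream exon of REV was the bin of smallest p in that gene (log2 usage difference 0.35, edgeR unadjusted p = 0.0922).

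A deposited table of intron retention gives 1 set of values with no sample named, so it describes the introns and compares no groups. Its retention ratio, the authors' value, runs from 0 (always spliced) to 1. The 10 genes have 80 introns in it, and 76 carry no warning of low coverage. Their median ratio was 0.0216, against 0.0184 over 73682 such introns of all genes, and 3 (3.95%) were at 0.1 or above, against 10.8% of all. The intron that splits the microRNA site had a ratio of 0.0369 in PHB, 0.0214 in REV and 0 in PHV, with 76, 125 and 70 reads spliced exactly across it.

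The 3 introns at 0.1 or above lie toward the 3′ ends of PHV and PHB. The highest was intron 14 of PHV, at 0.274, with a depth of 15.5 over its 88 bases and 41 spliced reads, and intron 17 of the same gene, just before the last exon, stood at 0.173. In PHB the highest was intron 13, at 0.105. Intron 14 of PHV, intron 13 of PHB and intron 14 of REV (0.0523) each stand directly before the longest internal exon of their gene, and their sequences are shown for that shared position, with the splice site dinucleotides in capitals.
PHV intron 14 (chr1:10797286-10797373, minus strand): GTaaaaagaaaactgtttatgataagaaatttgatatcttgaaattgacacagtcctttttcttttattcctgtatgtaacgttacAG
PHB intron 13 (chr2:14640540-14640630, minus strand): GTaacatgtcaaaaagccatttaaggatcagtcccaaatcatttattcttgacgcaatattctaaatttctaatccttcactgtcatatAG
REV intron 14 (chr5:24400854-24400935, plus strand): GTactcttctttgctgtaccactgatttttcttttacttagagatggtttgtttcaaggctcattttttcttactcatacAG
All 3 begin with GT and end with AG, and their G and C content was 27.3%, 31.9% and 34.1% for PHV, PHB and REV. In CNA and ATHB8 the introns at the same position had ratios of 0.0308 and 0.

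**Figure D5:**
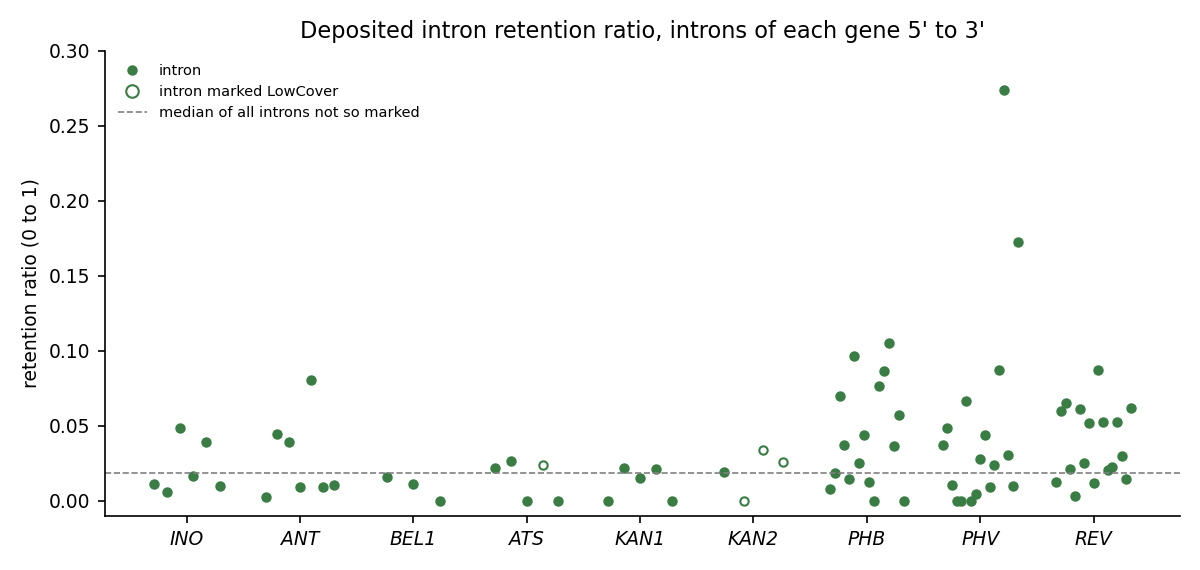
Retention ratio in the authors' deposited table for each intron of the 9 genes that have introns, ordered 5′ to 3′ within a gene. Open points carry a low coverage warning, the dashed line is the median of all introns without it (0.0184), and PHV intron 14 is the highest point at 0.274.

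Some genes that mark the tissues in or near the samples moved between the groups. Over all genes tested, 3.05% were called higher and 2.79% lower, and 25.4% had ranges that did not overlap. Of 3 ovule identity genes, STK (log2 fold change -0.63, edgeR adjusted p = 0.0166) and SHP2 (-0.42, 0.0471) fell, and their summed level with SHP1 was 229 to 271 CPM in wild type and 172 to 201 in the libraries labelled mutant. Of 6 genes of the endothelium, the innermost integument layer, BAN, TT2 and TTG2 fell. TT8 (-0.63), TT16 (-0.25) and AHA10 (-2.74) did not pass. The summed CPM of the 6 was 60.5, 191 and 136 in wild type and 46.4, 29.9 and 41.4 in the other group. Of 5 embryo sac genes tested, EC1.1, EC1.4 and FIS2 fell (summed with AGL61, which was not tested, 15.8 to 21.7 CPM against 4.97 to 7.11). The carpel gene SPT rose (0.73), while FUL (0.10), NTT (0.63) and IND (-0.18) did not pass. Carpel sums were 69.1 to 78.6 CPM against 88.6 to 100.6, with HEC1 and HEC2 at or near 0. The stamen and petal gene PI rose (1.36) from a wild type mean of 1.19 CPM. AP3, the more abundant of the pair (18.8 CPM), went the other way without passing (-0.71, edgeR adjusted p = 0.0565). Their sums were 18.5 to 22.5 CPM in wild type, against 11.3 to 16.7 in the libraries labelled mutant. PPME1 rose among 4 pollen genes, whose summed CPM was 278, 287 and 281 in wild type, against 640, 246 and 491 for the libraries labelled mutant. Among these marker calls, TTG2, EC1.1 and EC1.4 passed under all 13 alternatives (highest edgeR or other adjusted p = 0.0431, 0.0413 and 0.0454). STK was not called without wild type replicate 3 or mutant replicate 3, SPT not without wild type replicate 3 (0.0743), and SHP2, BAN, TT2, FIS2, PI and PPME1 passed in 6 to 9 of them. The part of these tissues in the levels of INO and ANT was not tested.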

How the data were processed

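Ribosomal RNA was depleted from total RNA and stranded libraries were read in pairs, per the labels' protocols. Trimmomatic, STAR, featureCounts (Subread 1.6.0), DESeq2 and the TAIR10 genome are named in the submitters' processing notes. The deposited gene and exon bin counts are whole numbers without normalization, made by the authors with featureCounts, per the file headers. The authors' deposited comparison table holds log2 fold changes and adjusted p-values (all under 0.05). Their deposited intron table gives, with no sample named, depth (coverage signal), spliced read counts and a retention ratio as a fraction.

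Gene counts were tested with edgeR 4.0.16 (quasi-likelihood, TMM, filterByExpr, no covariate) in R 4.3.3, and exon bins with diffSpliceDGE on bins of at least 10 counts in 3 libraries. CPM uses TMM-scaled library sizes and CPM per kilobase divides it by the deposited exonic length. Alternatives were upper-quartile factors, DESeq2 1.42.0, limma-voom 3.58.1, no filter, halved counts of wild type replicate 1, organelle genes left out, a replicate block and each library left out. Both gene and bin tests were tested on simulated data. Replicates are called biological without separate plants being stated, so p-values measure the spread between libraries, which may be technical. The genes, lists, marker genes and tests were chosen with earlier results of these data known. Named genes were the 10, up to 8 listed partners of smallest p past the threshold, the bin of smallest p per gene, the 3 genes nearest to INO (1 of them is not reported here), and the markers. Other partner genes were named after their values were seen. Sequences come from RefSeq TAIR10.1, where 32548 of the genes were found by identifier.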

Additional observations from a re-analysis of the deposited data

How the results depend on the processing

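None of the 10 genes was called under any of the 13 alternatives. INO ranged from -0.49 to -0.33 on the log2 scale (edgeR or other adjusted p from 0.0597 to 0.365) and ANT from 0.26 to 0.37 (0.0851 to 0.339). With 1 library left out, KAN1 ranged from -0.28 to 0.17 around -0.03 (0.17 without mutant replicate 2, 0.012 without wild type replicate 3), and KAN2 from -0.077 (without mutant replicate 3) to 0.36 around 0.22. SUP ranged from 0.11 to 0.40, BEL1 from 0.046 to 0.18, PHB from 0.080 to 0.20, PHV from 0.0015 to 0.11, REV from 0.031 to 0.077 and ATS from -0.24 to -0.14. Leaving out 1 library moved the partner genes called from 4 to between 0 and 4, and all genes called from 1128 to between 431 and 1399. The cause was not tested. With the replicate block 886 genes, 3 partner genes and 0 of the 10 genes were called. The partners called were AIL5, ETT and ARGOS, but not AGO10 (edgeR adjusted p = 0.0508) or SGS3 (0.0505). Deviations of same-numbered libraries from their group means had correlations of -0.05, -0.05 and 0.10. Pairs of different number had -0.12 to 0.11. Whether same-numbered libraries were collected together is not stated, and these correlations cannot settle it. Over all bins, 0 to 47 were called when 1 library was left out and 2 with all 6.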
